A study of Mus musculus and Bos taurus with 26 samples.

Results

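Translation initiation factors are the proteins that bring an mRNA, the initiator methionyl-tRNA and the ribosomal subunits together at a start codon. In the mouse table, 58 of 27988 genes have a symbol that begins with Eif and a digit between 1 and 6, after 5 matching pseudogene symbols were left out. In the bovine table, 52 of 21577 genes have the upper-case form of such a symbol. The rule reads gene symbols and no measured value. The name also brought in Eif5al3-ps, a processed pseudogene, and Eif2c5, a lincRNA, in the GENCODE M21 annotation, and both are kept here by the letter of that rule. Expression was compared for the 56 mouse and 50 bovine members that reached 1 FPKM (fragments mapped to a gene, scaled by transcript length and by the size of the library) in at least 2 libraries. Eif2ak2 and Eif2c5 in mouse, and EIF2AK2 and EIF4EBP3 in cattle, did not reach it.

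The series asks what the histone deacetylases HDAC1 and HDAC2 do when the embryo's own genome is switched on, in mouse 2-cell and bovine 8/16-cell embryos. In mouse, zygotes received mRNA of mutant Hdac1 or wild-type (WT) Hdac1, of mutant Hdac2 or WT Hdac2, or water, and were collected as late 2-cell embryos at 36 h after fertilization. The mutant and WT Hdac1 embryos were also collected as early 2-cell embryos at 24 h. In a further set, zygotes injected with mutant Hdac1 received either Kdm5b mRNA, which encodes a histone H3 lysine 4 demethylase, or water in both blastomeres at the early 2-cell stage, and were collected at 36 h. Other mouse zygotes were cultured with 50 nM FK228 (romidepsin, which inhibits HDAC1 and HDAC2 among other histone deacetylases) or with DMSO in KSOM medium and collected at 36 h. Bovine embryos were cultured with 50 nM FK228 or with DMSO in BO-IVC medium and collected at 72 h. Each of the 13 groups has 2 libraries of polyA RNA. All injected embryos kept their own Hdac1 and Hdac2 genes, so a mutant was added to the embryo's own enzyme, and the WT groups carried additional WT enzyme. The labels name neither the mutations nor the mouse strain, and they do not say whether paired libraries came from separate cultures, so p-values measure the spread between these libraries.

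Initiation proceeds in steps. eIF2, loaded with GTP and the initiator tRNA, joins eIF1, eIF1A, eIF3 and eIF5 on the small ribosomal subunit. The cap-binding complex of eIF4E, eIF4G and eIF4A recruits the mRNA, and eIF5B joins the large subunit once a start codon is found. eIF2B recharges eIF2 with GTP. The eIF2α kinases (Eif2ak genes) slow initiation under stress, and the 4E-BPs (Eif4ebp genes) hold eIF4E away from eIF4G when mTOR is inactive. Early embryos translate mRNA stored by the oocyte before their own genome is active, and Eif4e1b is an oocyte-enriched relative of the cap-binding Eif4e.

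Promoter sequences are shown for the genes on which the results below turn: Eif3c and Eif4e, which were lower in every late mutant or FK228 comparison with its control, and Eif4a3l1 and Eif5a2, which were higher in each. The stretches run from 100 bases before to 20 bases after the RefSeq start on GRCm38.p6, written 5′ to 3′ on the strand of the gene. Capitals mark short motifs found on either strand. The ETS-type motif searched was CCGGAAG, and the SP1-type motif was GGGCGG. The NRF1-type motif is given by its name alone. The fourth motif was CCAAT, and the E-box searched was CACGTG. The Eif3c stretch is chr7:126566347-126566466 on the minus strand, that of Eif4e is chr3:138527168-138527287 on the plus strand and belongs to the downstream one of its 2 RefSeq starts (the same stretch at the upstream start, 138526091 to 138526210, held none of the motifs searched), that of Eif4a3l1 is chr6:136327439-136327558 on the plus strand, and that of Eif5a2 is chr3:28781177-28781296 on the plus strand.
Eif3c: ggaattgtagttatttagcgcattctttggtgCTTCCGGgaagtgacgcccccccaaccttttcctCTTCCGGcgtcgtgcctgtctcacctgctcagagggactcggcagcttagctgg
Eif4e: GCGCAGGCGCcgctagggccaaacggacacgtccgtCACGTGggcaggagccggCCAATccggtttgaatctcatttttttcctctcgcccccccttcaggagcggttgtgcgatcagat
Eif4a3l1: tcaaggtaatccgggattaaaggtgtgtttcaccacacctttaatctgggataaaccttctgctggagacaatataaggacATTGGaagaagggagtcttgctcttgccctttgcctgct
Eif5a2: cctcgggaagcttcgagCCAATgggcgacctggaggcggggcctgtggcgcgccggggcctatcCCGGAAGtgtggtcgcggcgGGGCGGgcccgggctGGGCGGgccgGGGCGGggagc

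Both ETS-type letters of the Eif3c stretch lie upstream of the start, while the Eif4a3l1 stretch holds CCAAT letters as its one match. RefSeq gave a window of 250 bases before to 50 bases after the start for 45 of the 58 mouse members. Of these 45, 16 (35.6%) held the ETS-type letters, against 9.93% of all 27025 genes with a window, and 33 (73.3%) held the SP1-type letters, against 38.2%. The E-box letters were in 22.2% of the members and 8.09% of all genes. The ETS-type share was 34.5% among the 29 members that were lower in the Hdac1 mutant, Hdac2 mutant and FK228 comparisons alike, and 37.5% among the other 16. The NRF1-type letters were in 7 of those 29 and in none of the other 16, against 5.19% of all genes. CCAAT letters were in 35.6% of the members and 41.1% of all genes. The letters AAGATGG (YY1-type) were in 13.3% of the members and 7.28% of all genes, and the letters TATAAA were in 8.89% and 15.7%. Searches covered both strands, each motif was counted on its own where matches overlapped, and a match is a description of the sequence only.

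Across the series, genes reaching 1 FPKM numbered 10704 to 14554 per mouse library and 11598 to 12141 per bovine library. The number was higher in the 10 late mutant or FK228 libraries (13412 to 14554) than in the 8 late control libraries (11284 to 12105). Read totals are unknown, since the tables hold FPKM. Injected genes were high where injected: Hdac1 stood at 4952 and 4612 FPKM after mutant Hdac1 mRNA and at 2707 and 2960 after WT Hdac1 mRNA at the late stage, against 92.2 and 89.3 after water, and the table does not separate injected from embryonic mRNA. In the Kdm5b set Hdac1 was lower, at 824 and 859 FPKM with mutant then Kdm5b and 917 and 805 FPKM with mutant then water, and the part of this in the results was not tested. Of 8 blood markers 5 were tested, and 5, 4 and 4 of them were called higher in the Hdac1 mutant, Hdac2 mutant and FK228 comparisons. Their summed level was 89.3 to 186 FPKM in late mutant or FK228 libraries, against 3.16 to 15.4 in late controls, mostly from Hba-a1, Hba-a2 and Cd74, while both adult β-globin genes, Hbb-bs and Hbb-bt, were at 0 in 9 of those 10 libraries. Summed cumulus and granulosa markers were at 13.7 to 30.3 FPKM in late mutant or FK228 libraries and 33.6 to 70.8 in late controls. Amhr2 made up most of the control sums (7.61 ± 1.39 FPKM with mutant Hdac1 and 44.8 ± 5.55 FPKM with WT Hdac1, SD, n = 2), while Foxl2 was called higher with mutant Hdac1, and of the 5 tested 2, 2 and 1 were called higher and 1 lower in each of the Hdac1 mutant, Hdac2 mutant and FK228 comparisons. The 7 genes of the 2-cell stage summed to 399 to 550 FPKM in late mutant or FK228 libraries and 245 to 340 FPKM in late controls, with 5, 6 and 6 called higher and Dppa2 called lower in each comparison (11.8 ± 4.18 FPKM with mutant Hdac1 and 119 ± 5.54 FPKM with WT Hdac1). Of all genes tested, 30.5%, 30.8% and 31% were called higher in these comparisons and 21.6%, 22.2% and 26.3% lower. The cumulus and granulosa shares, 40%, 40% and 20% higher and 20% lower in each, are near those of all genes. The part of these marker differences in the results below was not tested. FPKM is a share of each library, so fewer cells of a type and less RNA per cell cannot be told apart.

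As a share of all FPKM, the members made up 0.735% to 0.969% of the 10 late mutant or FK228 libraries, 1.21% to 1.36% of the 8 late control libraries and 1.09% to 1.12% of the 4 early libraries. The late mutant or FK228 libraries did not overlap with the late controls. The leading member changed with the group. Eif4e1b was the most abundant member in early embryos, at a mean of 1178 FPKM with mutant Hdac1 and 1176 FPKM with WT Hdac1. Eif5a, which encodes the hypusine-bearing factor that helps ribosomes through difficult peptide bonds, led all 4 late control groups, with means of 355.0 to 663.4 FPKM. Eif4a3l1, a close relative of the exon junction helicase gene Eif4a3, led in the Hdac2 mutant, FK228, mutant then Kdm5b and mutant then water groups, with means of 287.5 to 413.4 FPKM, and was second to Eif4g2 in late Hdac1 mutant embryos (236.9 against 239.2 FPKM).

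**Figure D1:**
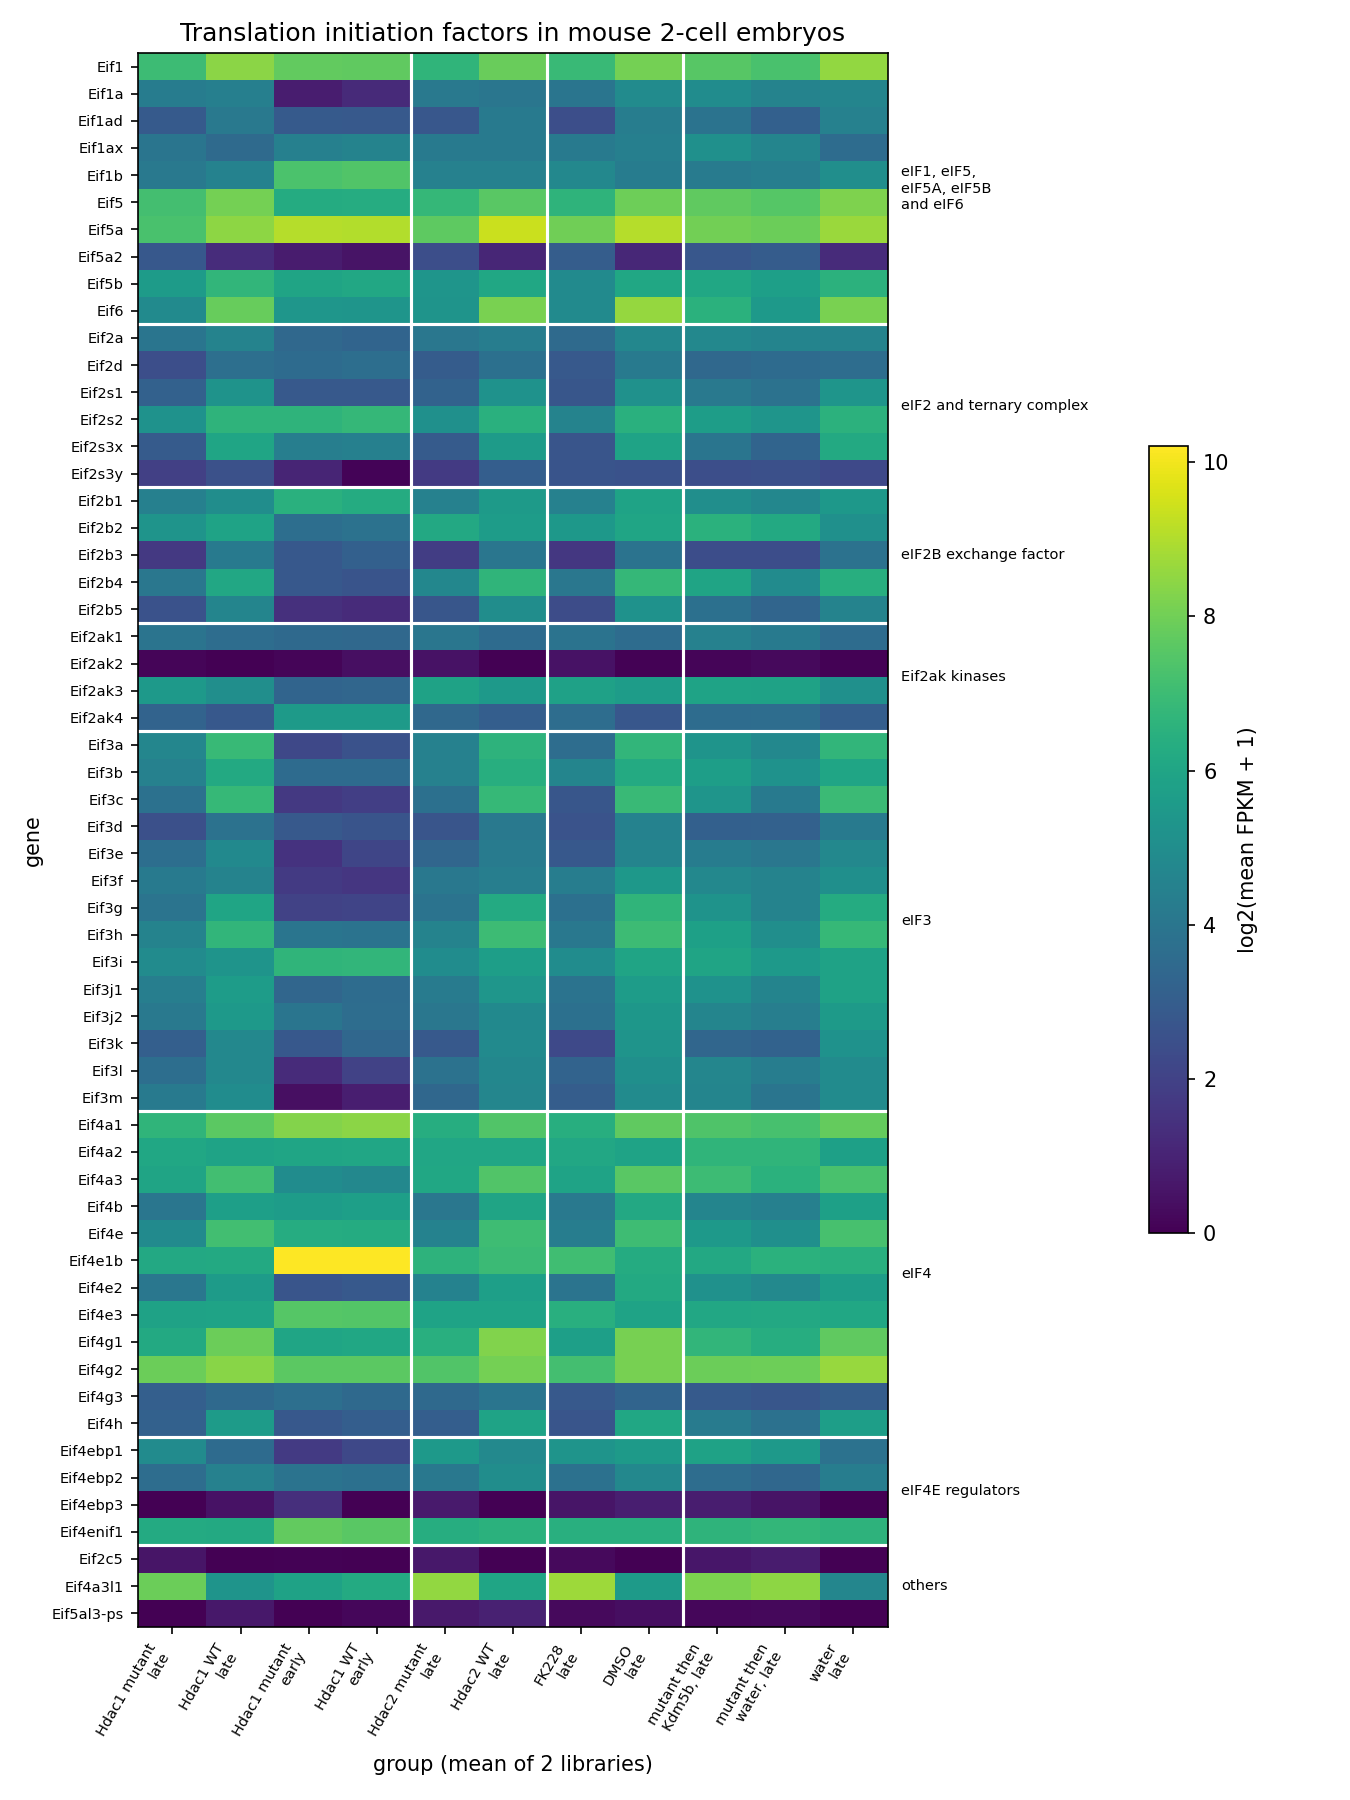
Colours show log2 of the mean FPKM plus 1 of 2 libraries for each of the 58 mouse members (down the page, by factor group) in the 11 mouse groups (across). Most eIF3 subunits are dark in both early groups, bright in the late WT, DMSO and water groups and intermediate in the late mutant and FK228 groups, while Eif4e1b is brightest in the early groups.

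Between the early and the late 2-cell stage, most initiation factors rose as a share of the polyA RNA in WT Hdac1 embryos. Of the 56 members tested, 37 rose and 11 fell (limma on log2(FPKM + 1), Benjamini-Hochberg adjusted p under 0.05 over all 17336 genes tested), which is 66.1% and 19.6%, against 28.8% and 28.1% of all genes tested. The median member was 1.28 higher on the log2 scale at the late stage, with the median gene at 0.000. eIF3, the large scaffold that binds the small ribosomal subunit, rose almost as a whole: 13 of its 14 genes rose and Eif3i fell, with a median log2 fold change of 2.73. The summed mean level of the 14 eIF3 genes was 747.3 FPKM in late WT embryos and 186.0 FPKM in early WT embryos.

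Eif3c, on chromosome 7 (126546455 to 126566411, minus strand, GRCm38), had 104 and 120 FPKM in late WT embryos, against 2.23 and 3.25 FPKM in early ones. It rose by 4.93 ± 0.19 on the log2 scale (SE, n = 2 libraries a group, limma adjusted p = 1.41e-11). Eif3a, the largest eIF3 subunit, on chromosome 19 (60761117 to 60790658), had 105 and 128 FPKM at the late stage, against 4.98 and 5.05 FPKM at the early stage. For both genes the late libraries were over an order of magnitude above the early ones, with no overlap. Eif3m had 31.8 and 27.9 FPKM at the late stage, against 0.430 and 1.19 FPKM at the early stage, and rose by 4.12 ± 0.25 (limma adjusted p = 1.07e-09). Eif3i, the exception, stood at 45.5 and 30.5 FPKM in late WT embryos and at 108 and 97.7 FPKM in early ones, again without overlap. It fell by 1.44 ± 0.18 (limma adjusted p = 5.67e-06), so eIF3 subunits did not keep 1 ratio to each other between the stages.

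The other complexes rose in part. Of 5 genes of eIF2B, the exchange factor that recharges eIF2, 4 rose and Eif2b1 fell by 1.29 ± 0.21 (limma adjusted p = 7.48e-05). Eif2b4 rose by 3.49 ± 0.22 (limma adjusted p = 1.57e-09), with 71.9 and 66.7 FPKM in late WT embryos and 5.29 and 5.18 FPKM in early ones. Of 6 genes listed with eIF2, which include Eif2a and Eif2d besides its subunit genes, 4 rose. Eif2s1, the α subunit that the eIF2 kinases phosphorylate, was up by 2.41 ± 0.17 (limma adjusted p = 7.81e-09). Eif2s2, the β subunit, had 86.4 and 110 FPKM late and 106 and 112 FPKM early and was not called (limma adjusted p = 0.33). Of 10 genes of eIF1, eIF5, eIF5A, eIF5B and eIF6, 7 rose and 3 fell, and of 12 eIF4 genes 6 rose and 3 fell. Among all genes tested, 28.8% rose and 28.1% fell. The falling shares of both lists, 30% and 25%, are near that of all genes.

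The factors that fell include several paralogs of ones that rose. Eif1b had 19.6 and 24.1 FPKM in late WT embryos, against 192 and 149 FPKM in early ones, and fell by 2.90 ± 0.20 (limma adjusted p = 5.68e-09). Its near-identical relative Eif1, both being start-codon fidelity factors, had 214 and 477 FPKM late, against 202 and 215 FPKM early, and its call (limma adjusted p = 0.0496) was lost under 6 of 11 alternatives, among them leaving out late WT library 2, where the log2 fold change was 0.04. The late Eif1b libraries lay far below the early ones, whereas 1 late Eif1 library overlapped with the early range. Eif1a, which works with Eif1 on the scanning ribosome, rose by 3.16 ± 0.13 (limma adjusted p = 3.04e-11), and Eif1ax, an X-linked gene for the same factor, fell by 1.21 ± 0.39, a call that was lost without late WT library 2 (adjusted p = 0.289) or early WT library 2 (0.0783). Eif4e3, a divergent cap-binding relative, fell by 1.57 ± 0.14, and Eif4e2, which encodes the translational repressor 4EHP, rose by 2.78 ± 0.26 (limma adjusted p = 1.36e-07 and 1.38e-07). Eif5a was called lower, by 0.57 ± 0.11 (limma adjusted p = 0.000288), a direction that turned under quantile normalization.

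In embryos with mutant Hdac1 the same interval was more even, with 23 members up and 18 down of 56, against 40.6% and 25.8% of all genes tested, and a median of 0.25, with the median gene at 0.372 (-0.022 under quantile normalization). Both stage comparisons are set against their own early libraries. Eif3m had 18.8 and 15.6 FPKM in late mutant embryos and 0.276 and 0.373 FPKM in early ones, a rise of 3.78 ± 0.25 (limma adjusted p = 4.35e-09). Eif4ebp1, a 4E-BP gene, had 32.2 and 26.004 FPKM late and 2.71 and 1.91 FPKM early, a rise of 3.19 ± 0.31 (limma adjusted p = 2.75e-07). Eif1a rose by 3.45 ± 0.13 (limma adjusted p = 5.08e-11), while Eif1b fell by 3.22 ± 0.20 and Eif4e1b by 4.03 ± 0.24 (limma adjusted p = 2.73e-09 and 2e-09). The size of the difference between the 2 stage comparisons is the Hdac1 effect at the late stage minus that at the early stage, which was tested directly. It was called lower for 31 members and higher for 3 of 56, against 15.2% and 21.2% of all genes tested, with a median of -1.01. The 3 higher were Eif4a3l1, Eif4ebp1 and Eif5a2, and without late WT library 1 there were 5. Over all genes, 61.1% of the calls between stages in mutant embryos were higher, and 47.6% under quantile normalization.

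At the early stage no member was called between mutant and WT Hdac1. limma called 0 of 56 members in either direction, against 0.231% of all genes higher and 0.329% lower, while 1057 of the 17336 genes tested had an unadjusted p under 0.05. The median member differed by -0.03. Of all genes called, 41.2% were higher, and 51.7% under quantile normalization. Eif3c had 2.25 and 2.16 FPKM in early mutant embryos, against 2.23 and 3.25 FPKM in early WT embryos, which overlap. With a pseudocount of 0.1, Eif1a and Eif3l were called lower (limma adjusted p = 0.0326 and 0.0342). Eif1a had 0.745 and 0.823 FPKM with mutant Hdac1 and 1.46 and 1.21 FPKM with WT Hdac1, and Eif3l had 1.22 and 1.58 FPKM with mutant Hdac1 and 3.15 and 3.02 FPKM with WT Hdac1. Neither gene overlapped between the groups.

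At the late stage, 3 comparisons that share no library (mutant against WT Hdac1, mutant against WT Hdac2, and FK228 against DMSO) all showed lower initiation factor mRNA. With mutant Hdac1, 36 of 56 members fell and 5 rose (64.3% and 8.93%, against 21.6% and 30.5% of all genes tested). With mutant Hdac2, 37 fell and 3 rose, against 22.2% and 30.8% of all genes tested, and with FK228 39 fell and 5 rose, against 26.3% and 31% of all genes tested. The median members were at -1.12, -0.99 and -1.34 on the log2 scale, while the median gene was at 0.169, 0.139 and 0.147. Under quantile normalization, which set the median gene at -0.063, -0.055 and -0.036, the median members were at -0.75, -0.74 and -1.0, and 8, 9 and 10 members were called higher. Among all genes called in the Hdac1 comparison, 58.5% were higher, and under quantile normalization 48% were. The count of 5 members higher with mutant Hdac1 was 3 without mutant library 1 or WT library 2.

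In the reported fit 35 members fell in all 3 comparisons, which is 35 of the 36, 37 and 39 that fell in each, and 40 fell in at least 1. Some of these calls depended on the processing. Among them, the Hdac2 call of Eif3e was lost under 8 of 11 alternatives and the Hdac1 call of Eif2b1 under 7. The Hdac1 calls of Eif3m and Eif4g2 were each lost under 4 of 11. Over all 17336 genes tested, 3014 (17.4%) fell in all 3 and 3666 (21.1%) rose in all 3. Among the members, Eif4a3l1 and Eif5a2 rose in all 3. Of the 37 members that rose with stage in WT Hdac1 embryos, 32 (86.5%) fell with FK228 and 30 (81.1%) fell with mutant Hdac2, comparisons that share no library with the stage comparison. Of all 4985 genes that rose with stage, 62.8% fell with FK228 and 53.1% fell with mutant Hdac2. These members made up 82.1% of the members lower with FK228 and 81.1% of those lower with mutant Hdac2, against 68.7% and 68.8% of all genes lower in these comparisons. Of the 11 members that fell with stage, 4 were called higher with FK228 (Eif2ak4, Eif4a3l1, Eif4e1b and Eif4e3) and 4 lower (Eif2b1, Eif3i, Eif4a1 and Eif5a), and of all genes that fell with stage 34.7% were called higher and 9.64% lower with FK228.

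**Figure D2:**
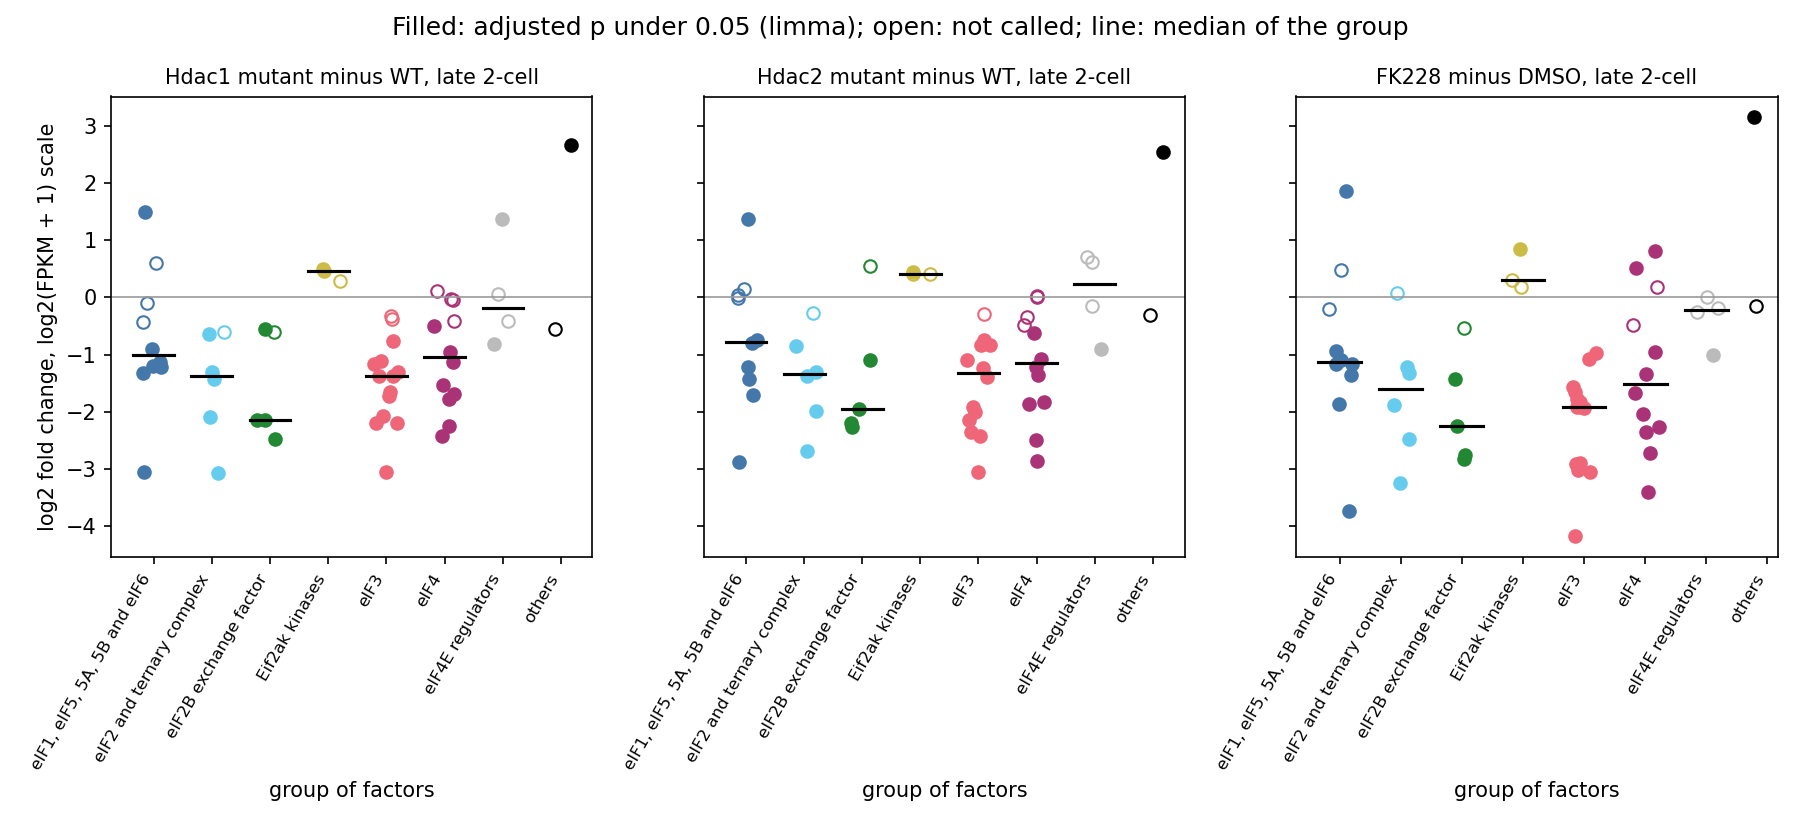
Each point is 1 of the 56 mouse members tested, placed by its log2 fold change on the log2(FPKM + 1) scale (vertical axis) and its factor group (horizontal axis) in the Hdac1 mutant, Hdac2 mutant and FK228 comparisons. Filled points passed an adjusted p of 0.05 and lines are group medians. eIF2B and eIF3 medians lie between -1.32 and -2.25, the Eif2ak kinases lie above 0, and Eif4a3l1 is the highest point in each panel.

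Most eIF3 genes fell. In the Hdac1 mutant, Hdac2 mutant and FK228 comparisons 12, 13 and 14 of its 14 genes fell and none rose, with medians of -1.37, -1.32 and -1.91. Of all genes tested, 21.6%, 22.2% and 26.3% fell and 30.5%, 30.8% and 31% rose. Eif3c had 9.96 and 15.9 FPKM with mutant Hdac1, against 104 and 120 FPKM with WT Hdac1, 11.7 and 13.4 FPKM with mutant Hdac2, against 97.3 and 126 FPKM with WT Hdac2, and 5.54 and 5.88 FPKM with FK228, against 118 and 124 FPKM with DMSO. Every mutant and FK228 library lay far below every control library, and FK228 libraries were the lowest. The log2 fold changes were -3.05 ± 0.19, -3.05 ± 0.19 and -4.18 ± 0.19 (limma adjusted p = 9.19e-09, 7.2e-09 and 4.77e-10). Eif3h, a subunit outside the yeast core, had 21.3 and 23.5 FPKM against 102 and 109 FPKM in the Hdac1 comparison and 17.2 and 14.4 FPKM against 116 and 135 FPKM in the FK228 comparison. Eif3f and Eif3i changed least with mutant Hdac1, by -0.38 ± 0.23 and -0.33 ± 0.18, and were not called (adjusted p = 0.179 and 0.15), but both were called lower with FK228, by 1.08 ± 0.23 and 0.97 ± 0.18 (limma adjusted p = 0.000766 and 0.000304). The FK228 call of Eif3i was lost under quantile normalization. Eif3e was called lower with mutant Hdac2 at an adjusted p of 0.0499, and that call was lost under 8 of 11 alternatives, among them leaving out mutant library 1 or 2 or WT library 2 (limma adjusted p = 0.109, 0.165 and 0.334).

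Of 6 genes listed with eIF2 and its ternary complex, 5 fell in each comparison, against 21.6%, 22.2% and 26.3% of all genes tested. This list holds Eif2a and Eif2d, which encode no eIF2 subunit. Eif2s1, Eif2s2, Eif2s3x and Eif2d fell in all 3 comparisons. Eif2s3x, the X-linked gene of the γ subunit that binds the initiator tRNA (X, 94188707 to 94212862, minus strand), had 5.25 and 8.09 FPKM with mutant Hdac1 and 65.8 and 59.1 FPKM with WT Hdac1. It had 6.59 and 6.60 FPKM with mutant Hdac2, against 42.3 and 53.8 FPKM with WT Hdac2, and 6.07 and 4.81 FPKM with FK228, against 58.9 and 60.9 FPKM with DMSO. All 6 mutant or FK228 libraries were under 10 FPKM and all 6 controls over 40. The log2 fold changes were -3.07 ± 0.20, -2.68 ± 0.20 and -3.25 ± 0.20 (limma adjusted p = 1.41e-08, 3.87e-08 and 4.4e-09). Its Y-linked counterpart Eif2s3y had at most 9.36 FPKM in any of these libraries. It was far below Eif2s3x in the controls, but with FK228 it had 4.43 and 6.17 FPKM, next to 6.07 and 4.81 FPKM of Eif2s3x. Of its 3 comparisons the Hdac2 one was called (-1.31 ± 0.45, limma adjusted p = 0.0227), a call lost without mutant library 1 (0.154) or WT library 1 (0.179) and with a pseudocount of 0.1 (0.108). The 2 genes are closely related in sequence, so the split of reads between them is uncertain. Of the 5 eIF2B genes 4 fell in each comparison, with medians of -2.14, -1.95 and -2.25. The Hdac1 call of Eif2b1 was lost under 7 of 11 alternatives. Eif2b4 had 11.9 and 18.7 FPKM with mutant Hdac1, against 71.9 and 66.7 FPKM with WT Hdac1. Eif2b2 was not called in any of the 3 (adjusted p = 0.134, 0.183 and 0.182), at 32.9 and 43.1 FPKM with mutant Hdac1 and 68.7 and 49.1 FPKM with WT Hdac1. Its log2 fold change was 0.55 with mutant Hdac2 and -0.53 with FK228. Quantile normalization called it higher with mutant Hdac2 (1.12, limma adjusted p = 0.00724).

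Of the 10 genes listed with eIF1, eIF5, eIF5A, eIF5B and eIF6, 6, 6 and 7 fell in the Hdac1 mutant, Hdac2 mutant and FK228 comparisons. Of all genes tested, 21.6%, 22.2% and 26.3% fell. Eif6, which keeps free large subunits from joining small ones (chromosome 2, 155819832 to 155826925, minus strand), had 17.0 and 40.6 FPKM with mutant Hdac1 and 240 and 217 FPKM with WT Hdac1. With mutant Hdac2 it had 39.5 and 35.7 FPKM, against 263 and 305 FPKM with WT Hdac2, and with FK228 it had 27.9 and 28.3 FPKM, against 385 and 389 FPKM with DMSO. The mutant and FK228 libraries lay within or below the early 2-cell level of Eif6 (36.3 to 44.5 FPKM), far below their controls. The log2 fold changes were -3.06 ± 0.26, -2.88 ± 0.26 and -3.74 ± 0.26 (limma adjusted p = 1.42e-07, 2.14e-07 and 1.06e-08). Eif5a, with means of 355.0 FPKM or more in late controls, fell by 1.2 ± 0.11, 1.70 ± 0.11 and 1.09 ± 0.11 (limma adjusted p = 2.84e-07, 8.92e-09 and 4.38e-07).

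Its paralog Eif5a2 moved the other way. Eif5a2 (chromosome 3, 28781276 to 28798846, plus strand) had 6.67 and 5.34 FPKM with mutant Hdac1, against 1.66 and 1.27 FPKM with WT Hdac1. It had 3.98 and 4.95 FPKM with mutant Hdac2, against 0.995 and 1.24 FPKM with WT Hdac2, and 7.71 and 6.33 FPKM with FK228, against 1.11 and 1.27 FPKM with DMSO. Every mutant or FK228 library was above every control, though Eif5a2 remained far below Eif5a in each of them. The log2 fold changes were 1.5 ± 0.19, 1.37 ± 0.19 and 1.87 ± 0.19 (limma adjusted p = 8.02e-06, 1.91e-05 and 5.98e-07). On the log2(FPKM + 1) scale changes of a gene this low are understated. Dhps and Dohh, the enzymes that make the hypusine residue on eIF5A, fell with mutant Hdac1 by 2.06 ± 0.42 and 1.60 ± 0.22 (limma adjusted p = 0.000704 and 1.47e-05).

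Of 12 eIF4 genes 8 fell in each comparison, against 21.6%, 22.2% and 26.3% of all genes tested. None rose with mutant Hdac1 or mutant Hdac2. With FK228, Eif4e1b and Eif4e3 were called higher (0.81 and 0.51), against 31% of all genes tested. Eif4g1, the scaffold of the cap complex, had 73.9 and 72.9 FPKM with mutant Hdac1 and 269 and 212 FPKM with WT Hdac1, without overlap. Eif4h, a helper of the eIF4A helicase (chromosome 5, 134619721 to 134639490, minus strand), had 7.12 and 7.48 FPKM with mutant Hdac2, against 52.5 and 66.8 FPKM with WT Hdac2, and 4.66 and 6.34 FPKM with FK228, against 69.0 and 65.4 FPKM with DMSO. It fell by 2.86 ± 0.18 and 3.40 ± 0.18 (limma adjusted p = 8.41e-09 and 1.24e-09). Eif4a1, the main helicase, fell by 0.95 ± 0.12, 1.07 ± 0.12 and 1.34 ± 0.12 (limma adjusted p = 7.74e-06, 2.1e-06 and 1.52e-07). Eif4a2, its paralog, was not called in any of the 3 (0.12, 0.03 and 0.18, each ± 0.20), and neither was Eif4g3. Quantile normalization called Eif4a2 higher in all 3, by 0.71, 0.62 and 0.87 (limma adjusted p = 0.00592, 0.0147 and 0.00116). The FK228 value of Eif4g3 was -0.49, and -0.93 without FK228 library 2. Eif4g2, which supports cap-independent initiation, was called lower by 0.50 ± 0.14, 0.62 ± 0.14 and 0.96 ± 0.14, and quantile normalization ended all 3 calls and turned the Hdac2 value to 0.05. The Hdac1 call of Eif4g2 was also lost without mutant library 1 (adjusted p = 0.093) or WT library 2 (0.0675).

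Among the members, Eif4a3l1 had the largest log2 fold change upward in all 3 comparisons. It had 252 and 222 FPKM with mutant Hdac1, against 46.8 and 28.1 FPKM with WT Hdac1. It had 383 and 362 FPKM with mutant Hdac2, against 62.7 and 63.3 FPKM with WT Hdac2, and 444 and 383 FPKM with FK228, against 40.6 and 51.3 FPKM with DMSO. The lowest mutant or FK228 library was over 3 times the highest control. The log2 fold changes were 2.67 ± 0.20, 2.54 ± 0.20 and 3.15 ± 0.20 (limma adjusted p = 4.96e-08, 6.11e-08 and 5.37e-09). Eif4a3, its near relative, had 59.6 and 63.9 FPKM with mutant Hdac1 and 140 and 132 FPKM with WT Hdac1, and it fell by 1.13 ± 0.13, 1.35 ± 0.13 and 1.68 ± 0.13 in the 3 comparisons (limma adjusted p = 4.32e-06, 6.29e-07 and 4.84e-08). The 2 genes moved in opposite directions although their sequences are similar, and how the deposited values split shared reads is not known. Between stages in WT Hdac1 embryos Eif4a3l1 fell, by 1.02 ± 0.20, and in mutant Hdac1 embryos it rose, by 2.01 ± 0.20 (limma adjusted p = 0.00038 and 3.71e-07), and the difference between these effects was itself called (3.04 ± 0.28, limma adjusted p = 3.01e-06).

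**Figure D3:**
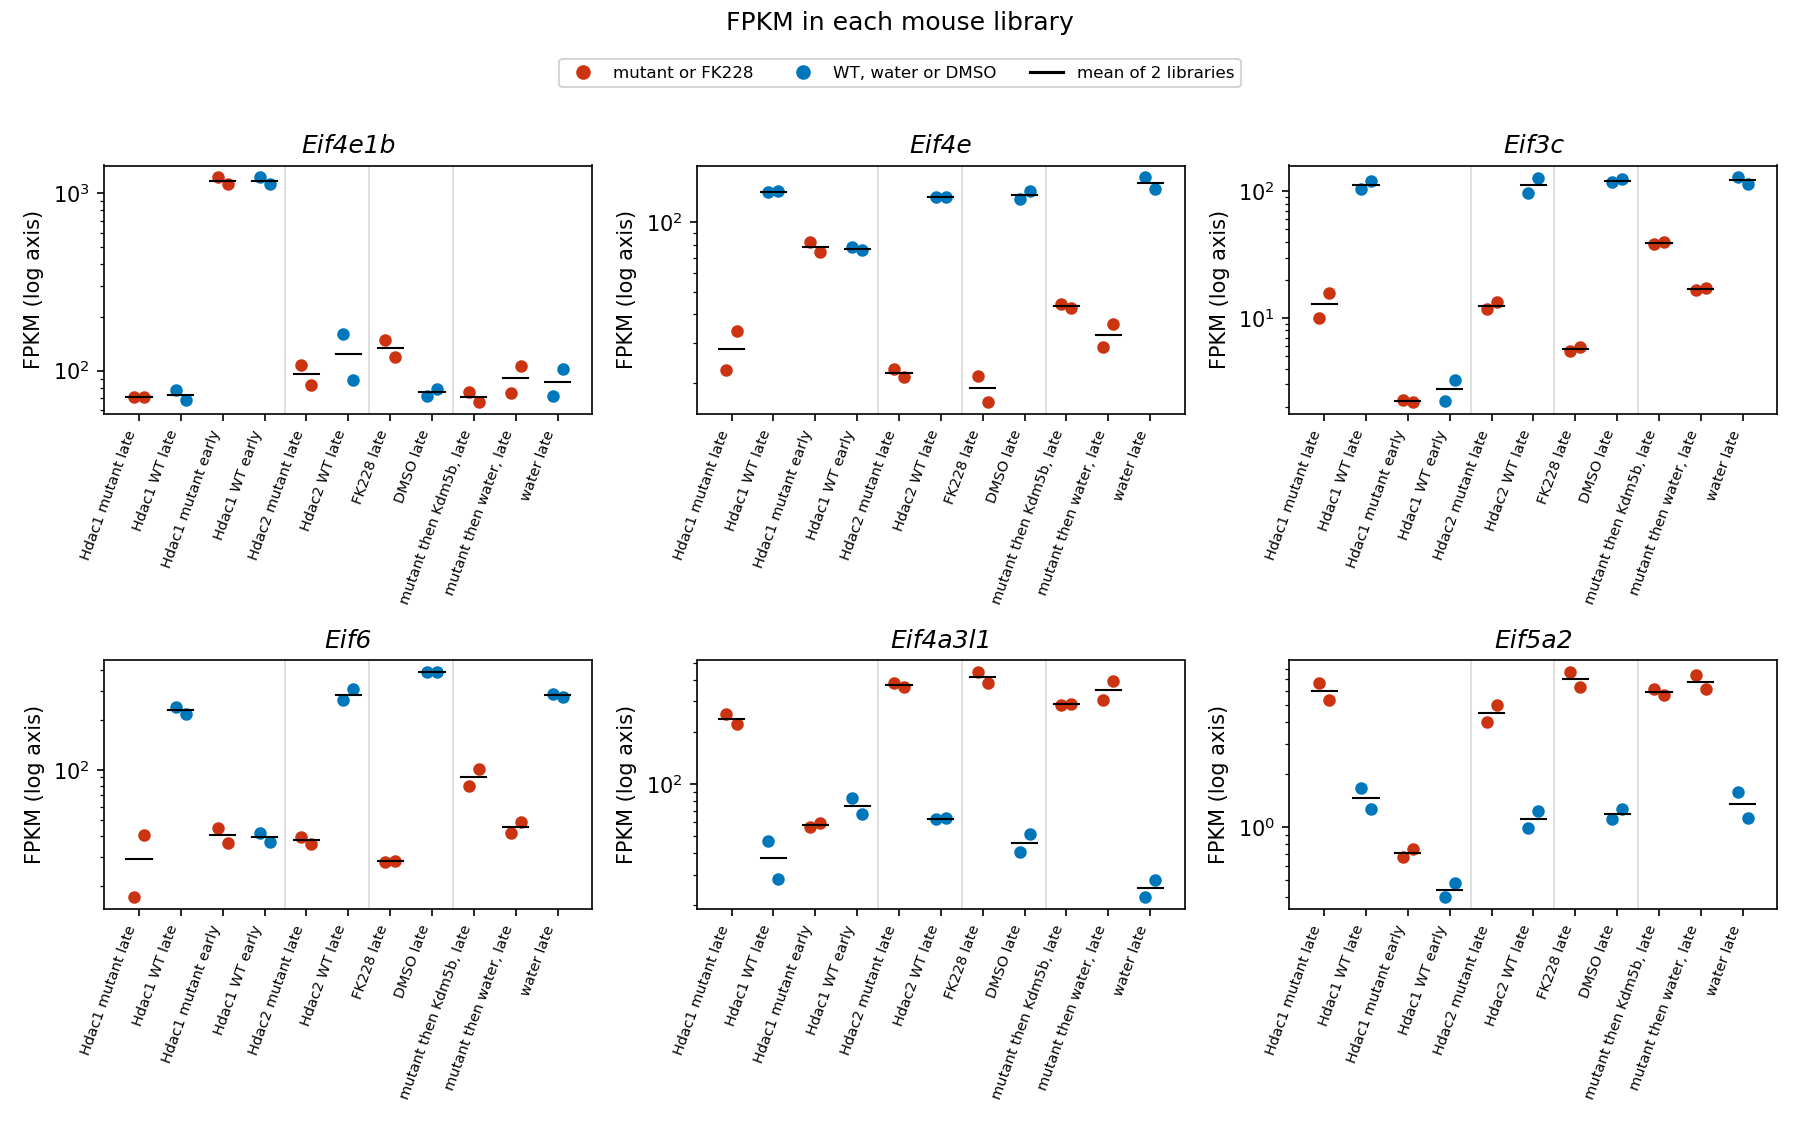
Points are single mouse libraries (FPKM, log axis) for Eif4e1b, Eif4e, Eif3c, Eif6, Eif4a3l1 and Eif5a2 in the 11 mouse groups, and black lines are means of 2 libraries. Red points are mutant or FK228 libraries and blue points WT, water or DMSO libraries. Late red and blue points separate for Eif4e, Eif3c, Eif6, Eif4a3l1 and Eif5a2, and the mutant then Kdm5b points of Eif3c and Eif6 lie between the mutant then water points and the water points.

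The oocyte-enriched cap-binding gene Eif4e1b and the general one, Eif4e, behaved differently. Eif4e1b (chromosome 13, 54783998 to 54788459, plus strand) had 1236 and 1119 FPKM in early mutant Hdac1 embryos and 1233 and 1120 FPKM in early WT ones. In late embryos it had 70.8 and 70.9 FPKM with mutant Hdac1, against 78.0 and 68.5 FPKM with WT Hdac1, and 108 and 82.5 FPKM with mutant Hdac2, against 161 and 88.7 FPKM with WT Hdac2. Early libraries were over 6 times any late one, and late mutant and WT libraries overlapped. From early to late it fell by 3.99 ± 0.24 with WT Hdac1 (limma adjusted p = 1.42e-09). At the late stage the Hdac1 and Hdac2 comparisons gave -0.04 ± 0.24 and -0.34 ± 0.24 and were not called (limma adjusted p = 0.911 and 0.271), but without WT Hdac2 library 2 the Hdac2 comparison was called lower (-0.76, limma adjusted p = 0.0177). With FK228 it had 149 and 119 FPKM, against 72.4 and 78.6 FPKM with DMSO, without overlap. That difference was called higher (0.81 ± 0.24, limma adjusted p = 0.00997), and the call was lost without DMSO library 1 (0.0576) or FK228 library 1 (0.0885).

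Eif4e (chromosome 3, 138526179 to 138559696, plus strand) had 82.2 and 74.5 FPKM in early mutant Hdac1 embryos and 78.0 and 75.8 FPKM in early WT ones. In late embryos it had 22.8 and 33.8 FPKM with mutant Hdac1, against 135 and 137 FPKM with WT Hdac1, 23.0 and 21.3 FPKM with mutant Hdac2, against 129 and 128 FPKM with WT Hdac2, and 21.6 and 16.5 FPKM with FK228, against 126 and 136 FPKM with DMSO. Late controls were above the early level and late mutant or FK228 libraries below it. The log2 fold changes were -2.25 ± 0.17, -2.49 ± 0.17 and -2.73 ± 0.17 (limma adjusted p = 4.36e-08, 1.34e-08 and 3.87e-09). In WT Hdac1 embryos Eif4e rose with stage by 0.81 ± 0.17, and in mutant Hdac1 embryos it fell by 1.46 ± 0.17 (limma adjusted p = 0.000551 and 1.57e-06).

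The ratio of Eif4e1b to Eif4e, both per length, differed between stages and treatments. It was 15.04 ± 0.00707 in early mutant and 15.29 ± 0.721 in early WT Hdac1 embryos (mean ± SD, n = 2). At the late stage it was 2.604 ± 0.714 with mutant Hdac1 and 0.539 ± 0.0536 with WT Hdac1. It was 4.28 ± 0.571 with mutant Hdac2 and 0.968 ± 0.39 with WT Hdac2. With FK228 it was 7.027 ± 0.204, against 0.5758 ± 0.000354 with DMSO. In each of these late pairs both mutant or FK228 libraries had Eif4e1b above Eif4e in FPKM, and in the WT Hdac1 and DMSO groups both libraries had it below. The genes most like Eif4e1b across the 22 mouse libraries, by Pearson correlation of log2(FPKM + 1), were Gyg (0.99), Angptl2 (0.989), Plekhg1 (0.987), Spry4 (0.987) and Hmces (0.987). For Eif4e this value was 0.119. The 4 early libraries weigh heavily in these values.

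The regulators were set apart from the factors. Eif2ak2 (PKR), the kinase that responds to double-stranded RNA, stood at 0 in 3 of 22 mouse libraries and at most at 0.621 FPKM. Eif2ak1 (HRI), the haem-regulated kinase, had 14.0 and 14.2 FPKM with mutant Hdac1 and 12.5 and 10.4 FPKM with WT Hdac1 at the late stage (0.29 ± 0.14, adjusted p = 0.114). It had 14.6 and 15.4 FPKM with mutant Hdac2 and 9.59 and 12.2 FPKM with WT Hdac2, which was called higher (0.44 ± 0.14, limma adjusted p = 0.0176), and the call was lost without mutant library 2 (0.0913) or WT library 1 (0.18) and with a fit of the 2 groups alone (0.0814). With FK228 it had 15.1 and 12.8 FPKM, against 10.4 and 11.8 FPKM with DMSO (0.31 ± 0.14, limma adjusted p = 0.0843). Quantile normalization called Eif2ak1 higher with mutant Hdac1 (0.38, limma adjusted p = 0.0429) and with FK228 (0.46, 0.0131). Median-ratio scaling called it higher with FK228 (0.45, limma adjusted p = 0.0176). In all 3 pairs the mutant or FK228 libraries lay above the controls by a few FPKM. Early libraries had 10.05 and 10.2 FPKM with mutant Hdac1 and 9.72 and 9.95 FPKM with WT Hdac1.

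Eif2ak3 (PERK), the kinase of endoplasmic reticulum stress, had 50.2 and 38.8 FPKM with mutant Hdac1 and 41.3 and 23.1 FPKM with WT Hdac1, which overlap. It was called higher by 0.50 ± 0.20 (limma adjusted p = 0.0482), and the call was lost without WT library 2 (0.685) or mutant library 1 (0.302), with median-ratio scaling (0.0734), without a filter (0.0743) and with a fit of the 2 groups alone (0.261). It had 61.1 and 54.2 FPKM with mutant Hdac2, against 40.9 and 45.5 FPKM with WT Hdac2, and 51.7 and 59.5 FPKM with FK228, against 50.4 and 46.4 FPKM with DMSO. Neither pair was called (limma adjusted p = 0.102 and 0.434), although the mutant or FK228 libraries lay above the controls. Quantile normalization called both pairs higher, by 0.94 and 0.85 (limma adjusted p = 0.000396 and 0.000768). A fit of the 2 groups alone called the Hdac2 pair higher (limma adjusted p = 0.0473). With stage Eif2ak3 rose in WT Hdac1 embryos by 1.64 ± 0.20 (limma adjusted p = 3.23e-06). Early libraries stood at 8.80 and 8.65 FPKM with mutant Hdac1 and 9.51 and 8.94 FPKM with WT Hdac1.

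Eif2ak4 (GCN2), the amino acid sensor, ran against most factors in time. It had 6.62 and 5.25 FPKM in late WT Hdac1 embryos and 44.3 and 47.5 FPKM in early ones, a fall of 2.76 ± 0.17 (limma adjusted p = 1.56e-09). Late mutant Hdac1 embryos had 9.42 and 7.75 FPKM and early ones 46.4 and 45.5 FPKM. Early libraries were several times above late ones in both. Late mutant against late WT Hdac1 was called higher (0.47 ± 0.17, limma adjusted p = 0.0307), a call lost without mutant library 1 (0.191) or WT library 2 (0.204), with quantile normalization (0.148) and with a fit of the 2 groups alone (0.222). With FK228 it had 11.8 and 11.2 FPKM, against 6.22 and 5.61 FPKM with DMSO, and was called higher (0.85 ± 0.17, limma adjusted p = 0.00049). With mutant Hdac2 it had 11.04 and 8.91 FPKM, against 8.50 and 6.08 FPKM with WT Hdac2, and was not called (limma adjusted p = 0.0535). It was called higher there with a minimum of 5 FPKM (0.41, limma adjusted p = 0.0485) and with a replicate block (0.41, 0.041).

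Eif4ebp1 levels varied among the late control groups, though no difference tested between them was called in the reported fit. DMSO was not compared with another control. Eif4ebp1 had 32.2 and 26.004 FPKM with mutant Hdac1, against 8.51 and 13.1 FPKM with WT Hdac1, and was called higher (1.37 ± 0.31, limma adjusted p = 0.00152). It had 44.8 and 42.1 FPKM with mutant Hdac2, against 20.6 and 33.6 FPKM with WT Hdac2, and was not called (0.70 ± 0.31, limma adjusted p = 0.0691). It was called higher there with quantile normalization (1.12, limma adjusted p = 0.00418), a replicate block (0.0389) and a fit of the 2 groups alone (0.0326). With FK228 it had 36.8 and 40.0 FPKM, against 42.7 and 49.2 FPKM with DMSO (-0.25 ± 0.31, limma adjusted p = 0.515). The mutant and FK228 libraries lay between 26.004 and 44.8 FPKM, while the controls ran between 8.51 FPKM with WT Hdac1 and 49.2 FPKM with DMSO. Eif4ebp2 fell in all 3 comparisons, by 0.82 ± 0.18, 0.91 ± 0.18 and 1.01 ± 0.18 (limma adjusted p = 0.00105, 0.000436 and 0.000153). It had 10.5 and 12.5 FPKM with mutant Hdac1, against 23.4 and 18.9 FPKM with WT Hdac1, 15.2 and 16.4 FPKM with mutant Hdac2, against 27.7 and 33.7 FPKM with WT Hdac2, and 10.6 and 15.0 FPKM with FK228, against 25.9 and 26.9 FPKM with DMSO. The ranges of mutant or FK228 and of control libraries of Eif4ebp2 did not overlap in any pair, and its early libraries stood at 12.7 and 14.8 FPKM with mutant Hdac1 and 12.2 and 13.2 FPKM with WT Hdac1. Eif4ebp3 was listed at 0 in 1 library and under 0.001 FPKM in 13 others of 22, with a highest value of 3.24 FPKM, so no fold is given. Eif4enif1, which encodes the eIF4E transporter 4E-T, was not called in any of the 3 (adjusted p = 0.78, 0.431 and 0.983). Quantile normalization called Eif4enif1 higher in all 3, by 0.65, 0.49 and 0.73 (limma adjusted p = 0.00557, 0.0274 and 0.00196). With stage in WT Hdac1 embryos it fell by 1.40 ± 0.15 (limma adjusted p = 7.34e-07).

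The Hdac1 and Hdac2 effects were not told apart for any member: limma called 0 of 56 members, against 0.0404% of all genes higher and 0.0635% lower, with 1658 genes at an unadjusted p under 0.05. The Hdac1 effect was less negative than, or above, the FK228 effect for 7 members, against 4.76% of all genes higher and 2.2% lower, with none the other way. These were Eif1a, Eif3a, Eif3c, Eif3h, Eif3k, Eif4h and Eif4ebp1. With median-ratio scaling none of the 7 was called. The count was 0 without DMSO library 1 or 2, 1 without FK228 library 2, 2 without mutant Hdac1 library 2, 3 without WT Hdac1 library 1 and 4 without FK228 library 1. Of all genes called, 68.4% were higher, against 49.2% after median-ratio scaling and 52.9% after quantile normalization.

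WT Hdac1 against water gave 0 calls among the 56 members by limma, against 0.352% of all genes higher and 1.83% lower, with 2739 genes at an unadjusted p under 0.05. Without WT Hdac1 library 1, 1 member was called lower, and without library 2, 1 was called higher and 2 lower. Of all genes called, 16.1% were higher, against 28.5% after median-ratio scaling and 34% after quantile normalization. WT Hdac2 against water gave 5 higher and 5 lower of 56, against 6.59% and 2.86% of all genes tested, so the share higher is near that of all genes. Of these 10 calls, 1, that of Eif4a3l1, held under every alternative run. The count higher was 3 without WT Hdac2 library 2 or water library 2, and the count lower was 2 or 3 without any 1 of the 4 libraries. Of all genes called, 69.8% were higher, against 57.1% with median-ratio scaling. Eif4a3l1 was the largest of these, with 62.7 and 63.3 FPKM after WT Hdac2 and 22.2 and 27.8 FPKM after water (1.31 ± 0.20, limma adjusted p = 0.00084). Eif4g3 had 13.6 and 15.8 FPKM after WT Hdac2, against 7.12 and 7.14 FPKM after water, and Eif5a had 656 and 671 FPKM, against 398 and 421 FPKM. Both pairs were without overlap and higher after WT Hdac2, by 0.95 ± 0.25 and 0.70 ± 0.11 (limma adjusted p = 0.0284 and 0.000945), but the Eif4g3 call was lost without any of its 4 libraries (0.0704 to 0.163). Lower were Eif1a (13.7 and 16.0 FPKM, against 24.0 and 24.0 FPKM), Eif5 (200 and 187 FPKM, against 315 and 285 FPKM) and Eif4g2 (282 and 250 FPKM, against 368 and 414 FPKM). These fell by 0.66 ± 0.13, 0.63 ± 0.12 and 0.55 ± 0.14 (limma adjusted p = 0.00562, 0.00286 and 0.0186). The Eif1a call was lost without WT Hdac2 library 1 (0.0557), and that of Eif4g2 without WT Hdac2 library 2 (0.141) or water library 2 (0.105).

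In the Kdm5b set, embryos with mutant Hdac1 followed by water were first set against embryos injected with water only. Of 56 members 34 fell and 9 rose, against 18.1% and 34.5% of all genes tested. Of all genes called, 65.5% were higher, against 47.7% with quantile normalization, and the median gene stood at 0.252, against 0.093 after median-ratio scaling and -0.086 after quantile normalization. Eif3c had 16.8 and 17.3 FPKM, against 130 and 115 FPKM after water only, Eif6 had 41.5 and 48.3 FPKM, against 286 and 276 FPKM, and Eif2s3x had 8.31 and 9.22 FPKM, against 82.9 and 61.9 FPKM. All 3 were several-fold lower in both mutant libraries, by 2.78 ± 0.19, 2.62 ± 0.26 and 2.90 ± 0.20 (limma adjusted p = 2.03e-08, 6.94e-07 and 2.37e-08). Higher were Eif4a3l1 (306 and 394 FPKM, against 22.2 and 27.8 FPKM), Eif4ebp1 (38.3 and 52.2 FPKM, against 8.59 and 18.0 FPKM) and Eif5a2 (7.39 and 6.11 FPKM, against 1.59 and 1.12 FPKM). They rose by 3.76 ± 0.20, 1.76 ± 0.31 and 1.72 ± 0.19 (limma adjusted p = 2.78e-09, 0.000192 and 2.3e-06). All 3 tested Eif2ak kinases were called higher, and with median-ratio scaling none was (limma adjusted p = 0.0555 to 0.0718). The Eif2ak4 call was also lost without mutant then water library 1 (0.0551) or water library 1 (0.0675). Eif4e had 28.8 and 36.1 FPKM after mutant then water, against 157 and 139 FPKM after water only, and Eif4e1b had 74.6 and 107 FPKM, against 71.6 and 102 FPKM. Eif4e fell without overlap and Eif4e1b overlapped (-2.16 ± 0.17 and 0.06 ± 0.24, limma adjusted p = 6.26e-08 and 0.862).

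Kdm5b mRNA after mutant Hdac1 was followed by higher levels of 3 members and lower levels of none, against 0.415% and 0.629% of all genes tested, with Kdm5b itself at 594 and 638 FPKM, against 61.3 and 74.0 FPKM with water. The median member was 0.28 higher. Without mutant then water library 1 or either Kdm5b library no member was called. Of all genes called, 39.8% were higher, against 23.8% with median-ratio scaling. Eif3c had 38.6 and 40.1 FPKM with Kdm5b, against 16.8 and 17.3 FPKM with water, Eif2b4 had 58.0 and 62.7 FPKM, against 26.5 and 31.6 FPKM, and Eif3h had 52.7 and 55.2 FPKM, against 29.8 and 34.9 FPKM. None of these pairs overlapped, and all 3 genes stayed below the water-only libraries (130 and 115, 85.0 and 83.8, 119 and 107 FPKM). They rose by 1.16 ± 0.19, 1.03 ± 0.22 and 0.72 ± 0.13 (limma adjusted p = 0.0158, 0.0398 and 0.0243). The Eif2b4 call was lost without any of the 4 libraries (adjusted p = 0.0652 to 0.325). Those of Eif3c and Eif3h were lost without mutant then water library 1 or either Kdm5b library (0.0827 to 0.17 for Eif3c and 0.115 to 0.258 for Eif3h). A pseudocount of 0.1 or a fit of the 2 groups alone ended all 3 calls. Eif6 had 80.2 and 101 FPKM with Kdm5b and 41.5 and 48.3 FPKM with water and was not called (0.99 ± 0.26, limma adjusted p = 0.0792).

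**Figure D4:**
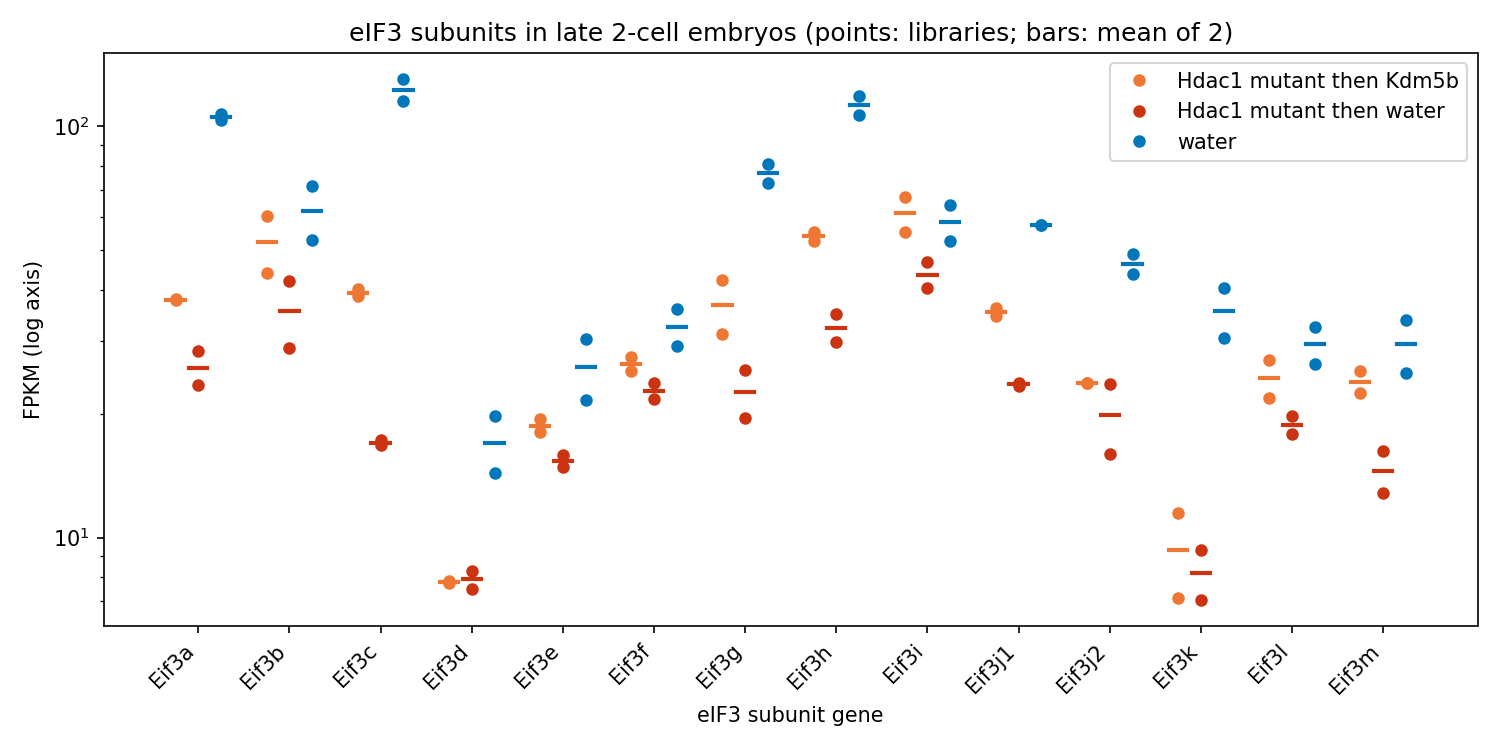
Points are single libraries and bars means of 2 for the 14 eIF3 genes (horizontal axis; FPKM, log axis) in late 2-cell embryos with mutant Hdac1 then Kdm5b, mutant Hdac1 then water, or water only. Both Kdm5b libraries of Eif3c (38.6 and 40.1 FPKM) lie between the mutant then water libraries and the water libraries, and those of Eif3d (7.74 and 7.85 FPKM) lie within the mutant then water range.

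The eIF3 genes summed to a mean of 451.3 FPKM with Kdm5b, 307.8 FPKM with mutant then water and 811.5 FPKM with water only. Eif4a3l1 had 287 and 288 FPKM with Kdm5b, close to the 306 FPKM of the lower mutant then water library and far above the water-only libraries. Eif4e had 44.1 and 42.5 FPKM with Kdm5b and 28.8 and 36.1 FPKM with mutant then water, which was not called (limma adjusted p = 0.244), and Eif4e1b had 76.3 and 66.2 FPKM with Kdm5b and 74.6 and 107 FPKM with mutant then water. The ratio of Eif4e1b to Eif4e was 1.644 ± 0.122 with Kdm5b, 2.772 ± 0.259 with mutant then water and 0.594 ± 0.196 with water only (SD, n = 2). Eif2ak1 had 22.1 and 20.3 FPKM with Kdm5b, 17.7 and 16.9 FPKM with mutant then water and 11.8 and 10.5 FPKM with water only. Eif2ak3 had 55.6 and 62.8, 56.8 and 57.3, and 36.4 and 32.2 FPKM in the same order, and Eif2ak4 had 11.3 and 10.7, 12.2 and 11.05, and 6.63 and 7.96 FPKM. No kinase was called between Kdm5b and water after mutant Hdac1. Eif4ebp1 had 52.2 and 63.0 FPKM with Kdm5b, 38.3 and 52.2 FPKM with mutant then water and 8.59 and 18.0 FPKM with water only. The lower Kdm5b library of Eif4ebp1 was level with the higher mutant then water library to 3 digits. Eif4ebp2 had 11.2 and 11.7 FPKM with Kdm5b, 8.89 and 10.2 FPKM with mutant then water and 20.96 and 16.9 FPKM with water only.

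In bovine 8/16-cell embryos FK228 was followed by lower levels of 30 of 50 members and higher levels of 3, which is 60% and 6%, against 27.4% and 22.2% of all 12590 genes tested. The median member was at -0.93 and the median gene at 0.062. The count higher was 1 without DMSO library 1 or FK228 library 1. Members made up 1.285% and 1.043% of all FPKM with FK228 and 1.905% and 1.855% with DMSO. eIF3 was again low, with 11 of 13 genes down and a median of -1.22, and its summed mean was 618.2 FPKM with FK228 and 1390 FPKM with DMSO.

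EIF4G1 had 23.5 and 22.9 FPKM with FK228, against 367 and 316 FPKM with DMSO, and fell by 3.82 ± 0.16 (limma adjusted p = 1.85e-05). EIF2B5, the catalytic eIF2B subunit, had 1.93 and 2.38 FPKM, against 17.8 and 19.9 FPKM, and EIF3F had 17.2 and 9.34 FPKM, against 74.9 and 61.4 FPKM. No FK228 library of these genes came near a DMSO library. They fell by 2.65 ± 0.21 and 2.33 ± 0.27 (limma adjusted p = 5.64e-05 and 0.000273). EIF6 had 40.7 and 36.4 FPKM with FK228 and 174 and 146 FPKM with DMSO. EIF3CL, the bovine eIF3C-like symbol, had 50.1 and 37.0 FPKM, against 92.1 and 95.9 FPKM, and whether it stands for 1 gene or a copy is not given. Both pairs were separated, with log2 fold changes of -2.02 ± 0.17 and -1.11 ± 0.19 (limma adjusted p = 7.27e-05 and 0.00165).

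Higher with FK228 was EIF5A2, with 54.0 and 49.4 FPKM, against 24.4 and 22.8 FPKM with DMSO (1.10 ± 0.16, limma adjusted p = 0.000917), while EIF5A fell by 1.13 ± 0.17 (limma adjusted p = 0.001). EIF4EBP1 had 18.0 and 14.5 FPKM, against 7.55 and 10.4 FPKM, and was called higher (0.80 ± 0.22, limma adjusted p = 0.0168), a call lost without DMSO library 1 (0.103) or FK228 library 1 (0.0701) and without a filter (0.0546). EIF4E1B had 497 and 360 FPKM, against 245 and 297 FPKM, and was called higher (0.65 ± 0.20, limma adjusted p = 0.0274), a call lost without DMSO library 1 (0.164) or FK228 library 1 (0.116), with median-ratio scaling (0.0609) and without a filter (0.109). For all 3 genes both FK228 libraries lay above both DMSO libraries. EIF4E had 28.4 and 26.9 FPKM with FK228 and 49.9 and 60.6 FPKM with DMSO and fell by 0.97 ± 0.17 (limma adjusted p = 0.00223). The ratio of EIF4E1B to EIF4E was 17.5 and 13.4 with FK228 and 4.91 in both DMSO libraries. EIF4EBP2 had 27.0 and 29.8 FPKM with FK228 and 30.3 and 29.7 FPKM with DMSO, which overlap, and EIF4EBP3 was listed at 0 and 0.224 FPKM with FK228 and at 0.747 and 1.76 FPKM with DMSO.

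The bovine eIF2 kinases were not called. EIF2AK1 had 25.6 and 24.5 FPKM with FK228 and 24.8 and 24.6 FPKM with DMSO, EIF2AK3 had 16.1 and 13.4 FPKM and 16.3 and 15.7 FPKM, and EIF2AK4 had 4.57 and 4.54 FPKM and 2.71 and 3.09 FPKM. EIF2AK1 overlapped, EIF2AK4 lay higher in both FK228 libraries, and the limma adjusted p-values were 0.926, 0.639 and 0.0714. EIF2AK2 reached at most 1.003 FPKM.

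**Figure D5:**
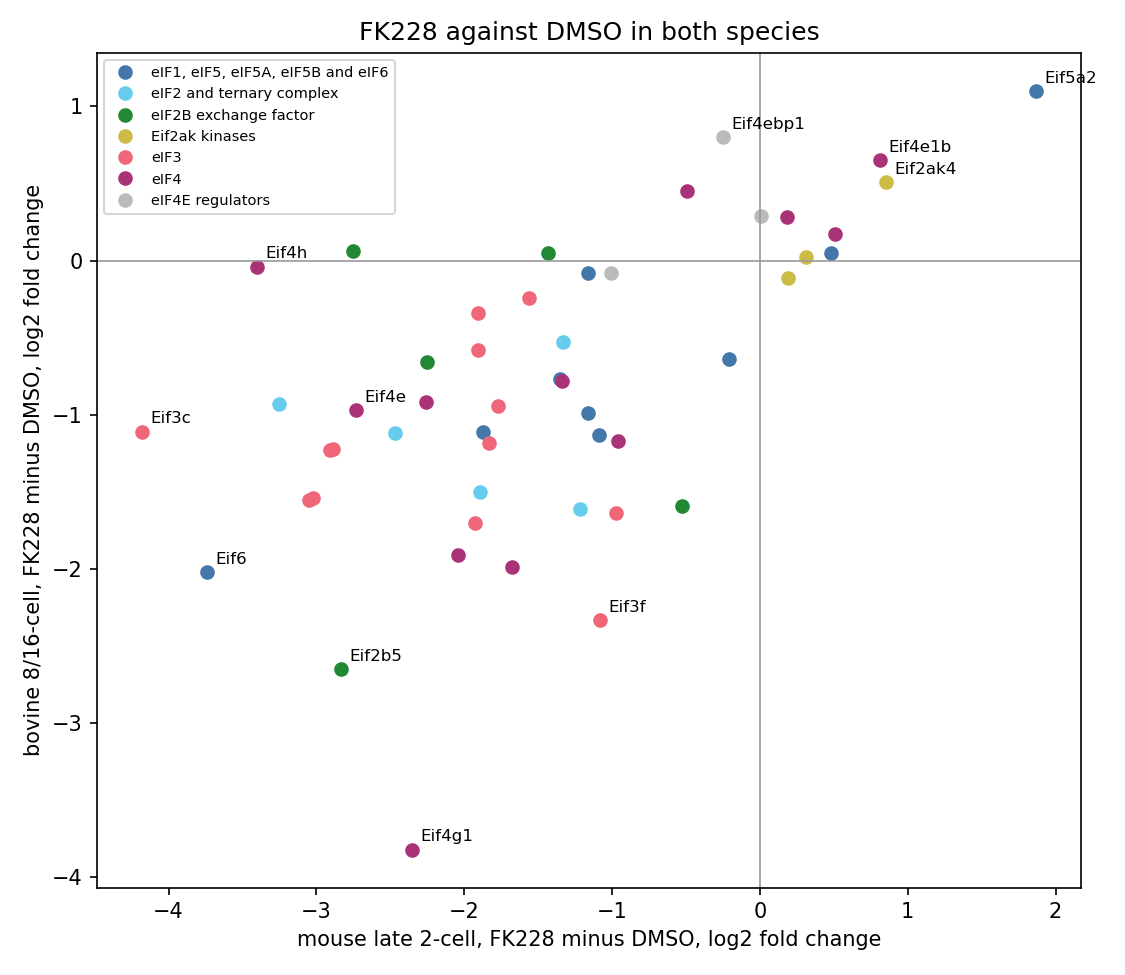
Each point is 1 of 50 matched members, placed by its log2 fold change with FK228 against DMSO in mouse late 2-cell embryos (horizontal axis) and in bovine 8/16-cell embryos (vertical axis), on the log2(FPKM + 1) scale. Members were matched by symbol, except 3 paired by hand: Eif2s3x with EIF2S3, Eif3c with EIF3CL and Eif3j1 with EIF3J. Most points lie in the lower left, Eif5a2 and Eif4e1b lie in the upper right, and Eif4h lies near 0 in cattle.

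Between the species, 50 members could be set side by side, of which 28 fell with FK228 in both and 2 (Eif5a2 and Eif4e1b) rose in both. These 28 are 28 of 37 matched mouse members lower and 28 of 30 bovine ones. Another 9 were called lower in mouse only and 2 (Eif1ax and Eif2b2) in cattle only, and none was called in opposite directions. The bovine call of EIF1AX was lost under 5 of 10 alternatives (limma adjusted p = 0.0575 to 0.0973), and that of EIF4E1B under 4 of 10. Of all genes tested, 26.3% fell with FK228 in mouse and 27.4% in cattle, and 31% and 22.2% rose. The overlap of calls over all genes of both species was not counted, so the agreement cannot be called particular to the members. The difference between the species was not tested. Eif4h fell by 3.40 ± 0.18 in mouse, and EIF4H had 101 and 106 FPKM with FK228 and 100 and 113 FPKM with DMSO in cattle (-0.04 ± 0.16, limma adjusted p = 0.836). Eif4ebp2 was called lower in mouse, and Eif4ebp1 was called higher in cattle. The stages compared differ, 36 h in mouse and 72 h in cattle, and the embryos of the 2 species were grown in different media.

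Other genes of translation were also called in these comparisons. Of 10 elongation and termination genes 7 fell and 1 rose with mutant Hdac1, and 7 fell and none rose with FK228, where 21.6% of all genes were lower and 30.5% higher with mutant Hdac1 and 26.3% and 31% with FK228. Gspt1, the release factor eRF3a, fell by 1.97 ± 0.20 and 2.35 ± 0.20 in these comparisons (limma adjusted p = 8.05e-07 and 8.28e-08), and Eef1g rose with mutant Hdac1 by 1.05 ± 0.21 (limma adjusted p = 0.000649). Of 14 poly(A)-binding and cap-complex partners 7 fell and 1 rose with mutant Hdac1, and 9 fell and 3 rose with FK228. Larp1, which binds mRNAs of the translation machinery, averaged 8.81 ± 1.07 FPKM with mutant Hdac1 and 61.9 ± 2.11 FPKM with WT Hdac1 (SD, n = 2). Pdcd4, an inhibitor of the eIF4A helicase, averaged 13.8 ± 2.35 FPKM with mutant Hdac1 and 2.27 ± 0.0624 FPKM with WT Hdac1, and was called higher in the Hdac1, Hdac2 and FK228 comparisons, by 2.17 ± 0.20, 1.58 ± 0.20 and 1.56 ± 0.20 (limma adjusted p = 3.61e-07, 7.76e-06 and 6.99e-06). The list for eIF2 phosphatases, ribosome recycling and mTOR has 11 genes, which also include Atf4, Abcf1, Dhps and Dohh. Dhps and Dohh are the hypusine enzymes already given above. Of the 11 listed genes 7, 7 and 9 fell and none rose in the Hdac1, Hdac2 and FK228 comparisons. Abcf1, which helps eIF2 bind ribosomes, averaged 6.76 ± 0.368 FPKM with FK228 and 124 ± 13.8 FPKM with DMSO. In cattle with FK228, 6 of the elongation and termination genes fell and 2 rose, and 7 of the partners fell and 4 rose. Of the list of 11 genes 5 fell and 1 rose in cattle. Among all bovine genes 27.4% were lower and 22.2% higher. The 4 of 14 partners that rose in cattle (28.6%) are near that share of all genes.

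With stage in WT Hdac1 embryos 2 poly(A)-binding protein genes moved in opposite directions. Pabpc1, the general one, averaged 211 ± 40.4 FPKM in late WT embryos and 6.48 ± 0.108 FPKM in early ones. Pabpc1l, the oocyte and early embryo form, averaged 4.13 ± 1.52 FPKM in late WT embryos and 88.4 ± 27.8 FPKM in early ones. The changes were 4.81 ± 0.14 and -4.12 ± 0.40 (limma adjusted p = 1.42e-12 and 2.35e-07). At the late stage Pabpc1 fell with mutant Hdac1 by 1.33 ± 0.14 (limma adjusted p = 1.35e-06), and Pabpc1l was not called (0.49 ± 0.40, adjusted p = 0.323).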

How the data were processed

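FPKM tables deposited by the authors were used for 22 mouse and 4 bovine libraries of polyA RNA, and each of 13 groups has 2 libraries. Per the labels, RNA was purified with a Picopure kit and oligo(dT) beads and made into libraries with a NEB Next Ultra kit and PCR, with no strand-marking step described. Per the submitters' processing notes, Trimmomatic, HISAT2, featureCounts, Cufflinks and DESeq2 were used on GRCm38 and ARS-UCD1.2; which tool gave the FPKM values, and how reads shared by similar genes were treated, is not given in the sources used here. Without strand, reads of overlapping genes on opposite strands cannot be told apart. Gene coordinates are those of GENCODE M21 and promoter sequences those of RefSeq on GRCm38.p6.

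Genes with at least 1 FPKM in at least 2 libraries were kept, which left 17336 mouse and 12590 bovine genes. Differences were fitted on log2(FPKM + 1) with limma 3.58.1 (R 4.3.3), with 1 coefficient per group, all groups of a species in 1 fit and an intensity trend in the variance. Adjusted p-values are Benjamini-Hochberg values over all genes tested, and calls are at 0.05. Fold changes on this scale are understated for low genes. The script was tested on simulated data. Tables and plots were made with Python 3.11.15, pandas 2.3.3, numpy 2.4.6 and matplotlib 3.10.9. Sequencing depth is unknown, so no counting intervals are given.

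The members were chosen by symbol, and the members and gene lists were chosen with earlier results of these data known. Library values are given for Eif4e1b, Eif4e, the Eif2ak and the Eif4ebp genes (those near 0 by their highest value or their count at 0), and for up to 3 members called higher and 3 called lower per comparison, by size of change, among those whose groups do not overlap and whose higher group averages 5 FPKM or more. A few other members are named beside their group or paralog and were chosen after their values were seen. Of the pathway lists, up to 2 called genes per list and direction are named. Alternatives were a pseudocount of 0.1, no filter, a minimum of 5 FPKM, median-ratio scaling, quantile normalization, a fit of the compared groups alone, a replicate block and leaving out each library.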

Additional observations from a re-analysis of the deposited data

Results flagged for a closer look

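The difference between 2 effects was itself tested as a limma contrast. It passed an adjusted p of 0.05 for 34 members between the stages and for 7 between mutant Hdac1 and FK228, and values are given here for the 20 of these whose gene met the rule for naming genes. Values are differences of log2 fold changes, and 2 libraries per group stand behind each.

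Of these, 14 are the late 2-cell effect of mutant Hdac1 over WT Hdac1 minus the early 2-cell effect. Lower at the late stage were Eif6 (-3.11, limma adjusted p = 1.51e-05), Eif2s3x (-3.00, 3.21e-06), Eif3c (-2.84, 3.11e-06), Eif2b4 (-2.27, 4.56e-05), Eif4e (-2.27, 5.74e-06), Eif3h (-2.25, 1.51e-06), Eif4h (-2.19, 1.39e-05), Eif3a (-1.82, 2.59e-05), Eif5a (-1.22, 2.5e-05), Eif4ebp2 (-0.93, 0.00876) and Eif5 (-0.86, 0.000719). Higher at the late stage were Eif4a3l1 (3.04, 3.01e-06), Eif4ebp1 (1.83, 0.00386) and Eif5a2 (1.25, 0.00193).

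The other 6 are the effect of mutant Hdac1 minus that of FK228 in late 2-cell embryos. They were Eif4ebp1 (1.62, limma adjusted p = 0.0371), Eif3c (1.13, 0.0211), Eif4h (0.98, 0.0316), Eif1a (0.84, 0.0173), Eif3a (0.84, 0.0382) and Eif3h (0.73, 0.0292). With median-ratio scaling none of these 6 was called, and none was called when either DMSO library was left out. FK228 embryos were cultured with the compound and mutant embryos were injected with mRNA, and each effect was taken against its own control.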

How the results depend on the processing

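Counts of members called within 1.5 times the reported count under an alternative are not listed here. Under quantile normalization the count higher was 8 for the Hdac1 mutant, 9 for the Hdac2 mutant and 10 for FK228 at the late stage, 2 for WT Hdac2 against water, 6 for the late minus early Hdac1 effect and 5 in cattle, and the count lower for the Hdac1 minus FK228 effect was 1. With median-ratio scaling WT Hdac2 against water had 9 lower, mutant then water had 5 higher, and the Hdac1 minus FK228 effect had 0 higher and 1 lower. With a fit of the compared groups alone the count higher was 3 for the Hdac1 mutant, 1 for WT Hdac2 against water (0 lower), 0 for Kdm5b and 0 for the Hdac1 minus FK228 effect. Without a filter the count higher was 5 for the Hdac2 mutant and 1 in cattle. A pseudocount of 0.1 gave 2 lower at the early stage and 0 higher with Kdm5b.

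The labels do not say whether same-numbered libraries share a culture or day. Over the genes tested, the library 1 minus library 2 difference of a group correlated with that of its comparison group at -0.059 to 0.233. There are 2 pairs per comparison, too few to decide on a pairing, so the numbers serve as names. With the replicate block the Hdac2 mutant had 5 members higher, and the other counts stayed within 1.5 times.

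Leaving out 1 library gave, for higher and lower, 3 to 6 and 33 to 35 for the Hdac1 mutant, 3 to 4 and 34 to 36 for the Hdac2 mutant, 4 to 5 and 39 to 40 for FK228, 0 and 0 at the early stage, 36 to 37 and 10 to 11 for stage with WT Hdac1, 20 to 24 and 15 to 19 for stage with mutant Hdac1, 0 to 1 and 0 to 2 for WT Hdac1 against water, 3 to 5 and 2 to 3 for WT Hdac2 against water, 0 to 2 and 0 to 0 for Kdm5b, 6 to 9 and 30 to 33 for mutant then water, 3 to 5 and 29 to 34 for the late minus early effect, 0 and 0 for the Hdac1 minus Hdac2 effect, 0 to 7 and 0 to 1 for the Hdac1 minus FK228 effect, and 1 to 3 and 28 to 30 in cattle.

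Quantile normalization reversed the called values of Eif4g2 in the Hdac2 comparison, of Eif5a between stages with WT Hdac1 and of Eif1 and Eif5b between stages with mutant Hdac1. Of Eif4e1b and Eif4e, the values that changed sign were not called. Eif4e1b was 0.56 with quantile normalization and 0.05 without WT library 1 in the Hdac1 comparison (-0.14 to 0.05 over libraries left out), and 0.32 and 0.09 in the Hdac2 comparison (-0.76 to 0.09). At the early stage Eif4e was -0.05 without mutant library 1, and Eif4e1b was -0.04 with quantile normalization and -0.07 without mutant library 1 or WT library 2 (-0.07 to 0.07). For WT Hdac1 against water Eif4e was 0.02 with quantile normalization and Eif4e1b 0.03 without water library 2 (-0.47 to 0.03). For mutant then water Eif4e1b was -0.18 with median-ratio scaling and -0.19 without water library 1 or mutant then water library 2. Without WT Hdac2 library 2, Eif4e1b was called higher in WT Hdac2 against water (0.90, limma adjusted p = 0.0478). The cause of these changes was not tested. Of the members called, 34 of 41 with the Hdac1 mutant, 29 of 40 with the Hdac2 mutant, 40 of 44 with FK228 and 29 of 33 in cattle were called under every alternative run, and 0 of 3 with Kdm5b were. Depth is unknown, so differences of genes near 1 FPKM carry unknown counting error.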
